A study of Mus musculus with 16 samples.

Results

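The genes described here are 10 genes of oxidative and metal stress, found as the rows of the deposited table that carry exactly these symbols: NFE2L2, HMOX1, NQO1, GCLC, GCLM, TXNRD1, SRXN1, MT1, MT2 and GPX3. All 10 were present among the 18132 genes measured, and each had 1 value per array. Symbols are written in capitals, as in the table. Kidney RNA was measured on Illumina BeadChips, on which the brightness of a bead follows the amount of its transcript. Of 16 arrays, 12 came from kidneys taken 24 h after unilateral ureteral obstruction (UUO), in which a clip closes the left ureter and the kidney behind it is injured. 7 of these were from wildtype (WT) mice, C57/BL6 in the labels and C57BL/6J in the methods, and 5 from IL-33-deficient mice backcrossed to Taconic C57BL/6J BomTac. The other 4 were untreated controls, 2 WT and 2 IL-33-deficient. The labels place the UUO kidneys in 2 sets, set 1 with 3 WT kidneys and 2 that lacked IL-33, set 2 with 4 and 3 of these. They give no set for the controls and do not say what a set is. The mice were young adults, and RNA was taken from whole kidney. Arrays are named by the number in their label. The labels do not say that each array is a separate mouse, so the p-values measure the spread between these arrays, which may be partly technical.

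NFE2L2 encodes NRF2, a transcription factor that is held in the cytoplasm by KEAP1 and degraded there in resting cells. Oxidants and electrophiles modify KEAP1, NRF2 then enters the nucleus, pairs with small MAF proteins and binds antioxidant response elements (ARE) at genes for glutathione synthesis, thioredoxin recycling, quinone reduction and heme breakdown. Metallothioneins are small cysteine-rich proteins that bind zinc and copper, and their genes are switched on by the zinc sensor MTF1 through metal response elements (MRE). Both systems are active in the proximal tubule of the kidney, which is rich in mitochondria and handles filtered metals. These statements are background and not results of the arrays.

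The promoters of the genes that rose most steadily after UUO are shown first, because they carry the elements by which these genes are known. The windows are from RefSeq on GRCm38.p6 and run from 250 bases before to 50 bases after the gene start, 5′ to 3′ on the strand of the gene. Capitals mark every match, on either strand, to the ARE core (TGACNNNGC or TGAGNNNGC), to the AP-1 site (TGACTCA or TGAGTCA), whose letters can overlap those of the ARE core, and to the MRE core (TGCACNC or TGCGCNC). MT1 lies at chr8:94178839-94179138 on the plus strand, MT2 at chr8:94172368-94172667 on the plus strand and SRXN1 at chr2:152105274-152105573 on the plus strand.
MT1: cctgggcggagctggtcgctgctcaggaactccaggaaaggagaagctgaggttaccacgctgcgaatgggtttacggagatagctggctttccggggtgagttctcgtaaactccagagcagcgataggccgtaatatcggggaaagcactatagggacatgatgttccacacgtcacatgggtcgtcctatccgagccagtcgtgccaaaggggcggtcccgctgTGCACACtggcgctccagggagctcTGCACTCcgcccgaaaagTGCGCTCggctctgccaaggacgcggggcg
MT2: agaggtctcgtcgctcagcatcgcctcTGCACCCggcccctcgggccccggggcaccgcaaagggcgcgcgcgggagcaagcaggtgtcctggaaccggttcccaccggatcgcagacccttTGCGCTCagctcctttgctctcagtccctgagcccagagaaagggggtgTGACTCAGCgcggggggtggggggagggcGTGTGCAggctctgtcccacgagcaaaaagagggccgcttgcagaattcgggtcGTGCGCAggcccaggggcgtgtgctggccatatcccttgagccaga
SRXN1: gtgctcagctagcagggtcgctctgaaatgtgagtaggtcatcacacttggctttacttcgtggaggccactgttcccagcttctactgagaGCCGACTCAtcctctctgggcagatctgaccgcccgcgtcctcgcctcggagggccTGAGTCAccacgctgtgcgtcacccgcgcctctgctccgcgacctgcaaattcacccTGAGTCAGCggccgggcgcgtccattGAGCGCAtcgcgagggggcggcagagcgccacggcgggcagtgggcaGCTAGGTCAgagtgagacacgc

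The MT1 window held 3 MRE cores and no ARE core, which does not show that MT1 lacks an ARE outside this stretch. The MT2 window held 4 MRE cores and 1 ARE core, which overlapped an AP-1 site. The SRXN1 window held 3 ARE cores, 1 of which overlapped an AP-1 site, a second AP-1 site and 1 MRE core. Among all 32851 promoter windows of this length, 27.8% held at least 1 ARE core and 25.7% held at least 1 MRE core, so a single core is common, while 1709 windows held an AP-1 site. At least 3 MRE cores were held by 1.97% of the windows, at least 4 by 0.518%, and at least 3 ARE cores by 0.630%. Of the other members, the GCLM window held 1 ARE core and 3 MRE cores, the NFE2L2 window 1 ARE core and 1 of the 3 TXNRD1 windows 1 ARE core. No match to these letters was found in the NQO1 window, the GPX3 window and the other TXNRD1 windows, which says only that the letters are not in this stretch. HMOX1 and GCLC have no entry in the table of windows. In all, 8 of the 10 genes had a window.

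**Figure D1:**
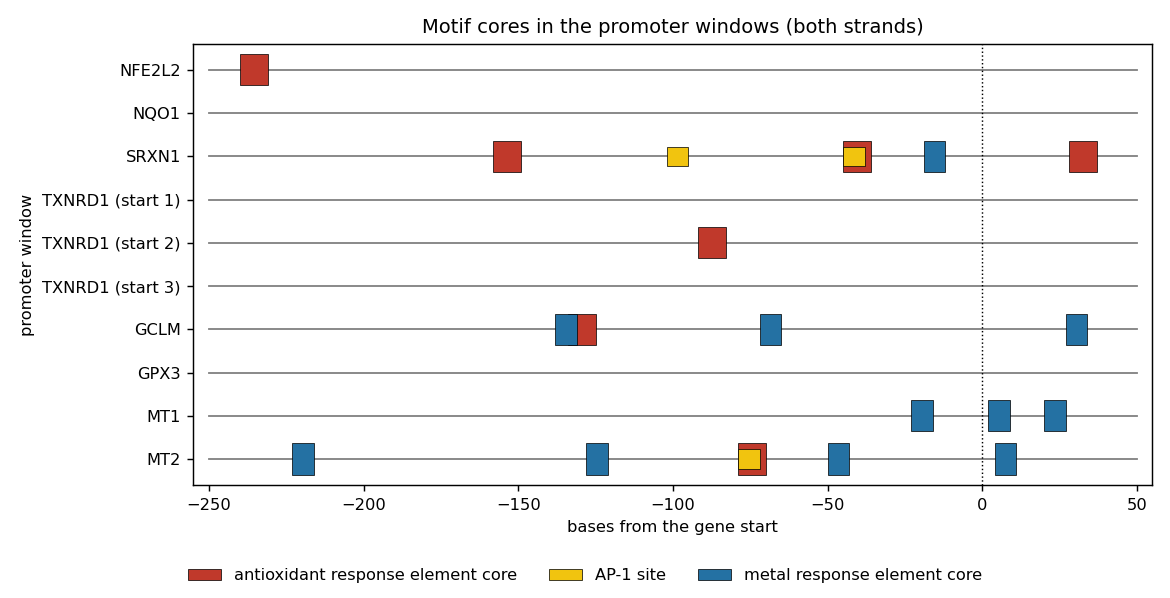
Matches to the ARE core, the AP-1 site and the MRE core along the promoter windows of 8 of the 10 genes, by bases from the gene start, with 3 windows for TXNRD1. MT1 and MT2 carried 3 and 4 MRE cores, and SRXN1 carried 3 ARE cores.

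The arrays themselves were checked first. IL33 was between 6.80 and 7.02 in the 7 IL-33-deficient kidneys, in the range of unexpressed genes, against 7.62 and 8.02 in the WT controls and 8.39 to 9.57 in WT kidneys after UUO (all on the log2 intensity scale, on which the lowest value of the table was 6.59, the median 7.05 and the highest 14.49). HAVCR1, the injury marker KIM-1 of the proximal tubule, was between 7.07 and 7.37 in the 4 controls and between 12.84 and 13.95 in 11 of the 12 UUO kidneys. WT kidney 3820 of set 1 stood apart with 10.42, and WT kidney 3818 of the same set had the lowest IL33 among WT kidneys after UUO. Calls of the 10 genes that changed without these 2 arrays are given below. Markers of kidney tissue were bright, with SLC34A1, a phosphate transporter of the proximal tubule, and UMOD, a product of the thick limb, brighter than 99.8% of all genes or more in their brightest group.

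UUO raised 6 of the 10 genes in WT kidneys at an adjusted p under 0.05 and lowered none, where 6.97% of all 18132 genes were called higher and 8.22% lower. In IL-33-deficient kidneys the same 6 genes, MT1, MT2, SRXN1, HMOX1, NFE2L2 and NQO1, were called higher and none lower, where 10.6% of all genes were called higher and 11.2% lower. The median log2 fold change over the 10 genes was 0.47 in WT and 0.52 in IL-33-deficient kidneys, against a median over all genes of -0.00076 and -0.00057. GCLM, GCLC, TXNRD1 and GPX3 did not pass the test in either genotype. All of these came from limma over the 16 arrays with Benjamini-Hochberg adjustment over all genes. Without WT control 3811 or WT control 3812 the number called in WT kidneys fell to 3, and without IL-33-deficient control 3813 the number called in IL-33-deficient kidneys fell to 3. Over all genes the calls in WT kidneys fell from 2754 to 1051 or 809, and those in IL-33-deficient kidneys from 3955 to 2276. MT1, MT2 and SRXN1 were called with each of these arrays left out. In 6 of the 10 genes, MT1, MT2, SRXN1, HMOX1, NFE2L2 and GCLM, all 12 UUO kidneys were above all 4 controls, where 6.15% of all genes were so separated.

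**Figure D2:**
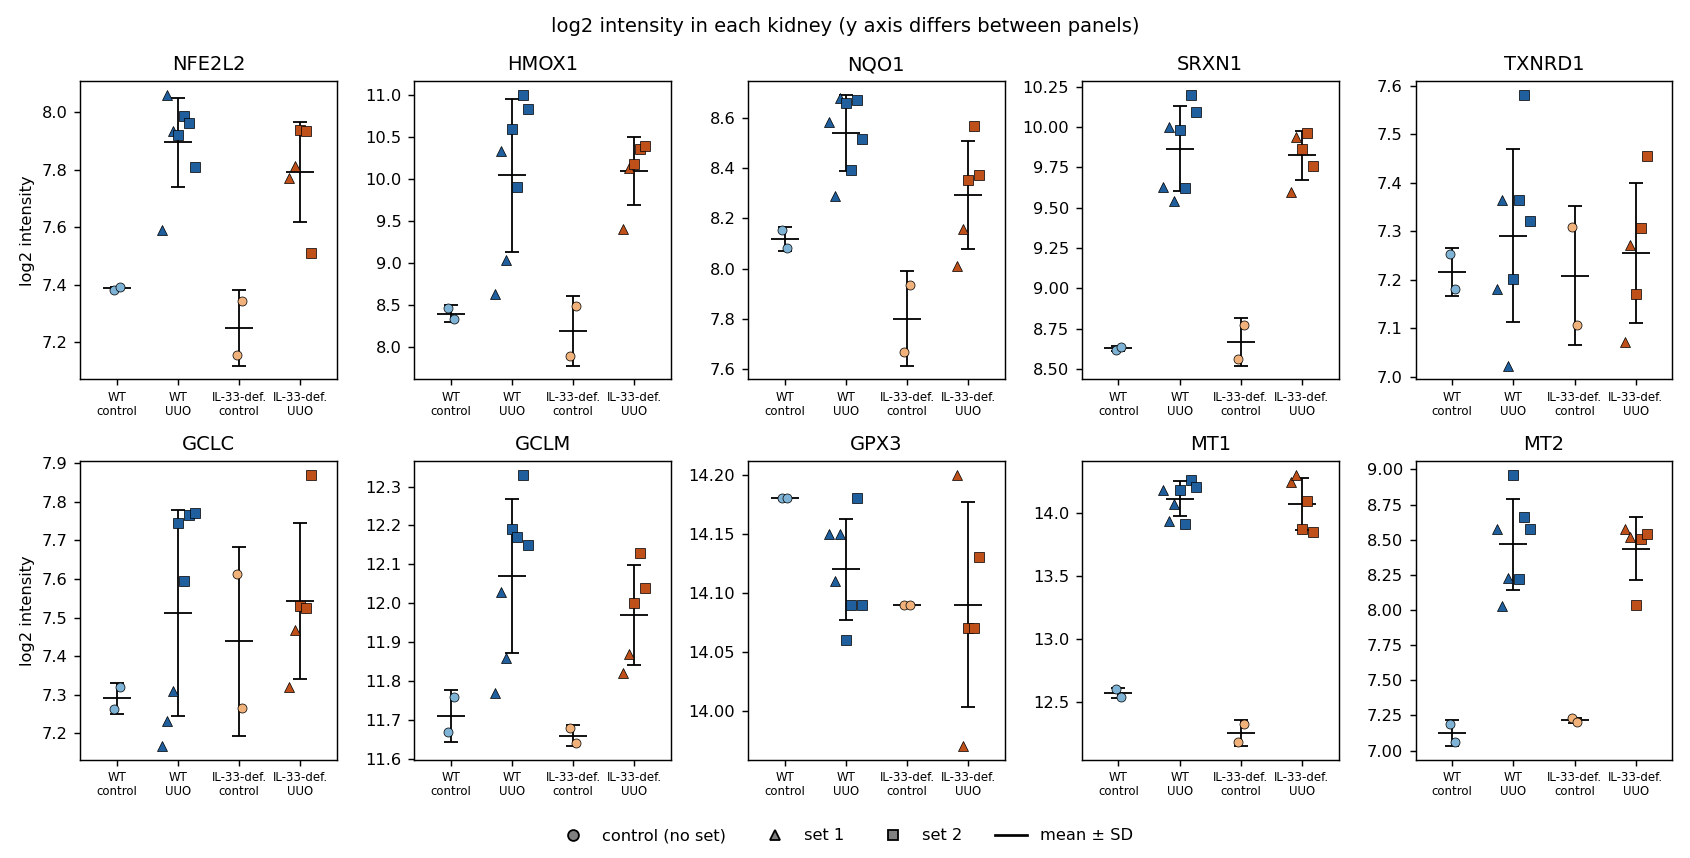
log2 intensity of the 10 genes in each of the 16 kidneys, by group, with triangles for set 1, squares for set 2, circles for controls and bars for the mean ± SD. MT1, MT2 and SRXN1 were higher in all 12 UUO kidneys than in any of the 4 controls, while TXNRD1 and GPX3 overlapped the controls.

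MT1, one of the widely expressed metallothioneins, was among the brightest genes of the kidney before injury and rose further. Its log2 intensity was 12.60 and 12.54 in the WT controls and 12.18 and 12.32 in the IL-33-deficient controls. After UUO the 7 WT kidneys lay between 13.91 and 14.26 with a median of 14.18, and the 5 kidneys without IL-33 had 14.24, 14.30, 13.87, 14.09 and 13.85. No UUO kidney overlapped a control, and WT kidney 3820, with the weak HAVCR1 response, was at 14.07. The rise was 2.89-fold in WT kidneys (log2 fold change 1.53 ± 0.12, SE, n = 7 against 2, limma adjusted p = 3.8e-06) and 3.53-fold in IL-33-deficient kidneys (1.82 ± 0.12, n = 5 against 2, limma adjusted p = 8.1e-07). After UUO the mean of MT1 exceeded that of 99.9% of all genes, close to the highest value of the table and level with GPX3. Whether its probe was saturated was not tested, and the folds and genotype differences of MT1 carry that limit.

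MT2, the neighbour and closest relative of MT1, changed from a level near the median gene. The WT controls were at 7.19 and 7.06 and the IL-33-deficient controls at 7.23 and 7.20. After UUO the WT kidneys ran from 8.03 to 8.96 with a median of 8.58, and those without IL-33 had 8.58, 8.52, 8.04, 8.51 and 8.54. Here too no UUO kidney overlapped a control. MT2 rose 2.54-fold in WT (log2 fold change 1.34 ± 0.19, SE, limma adjusted p = 0.00050) and 2.33-fold in IL-33-deficient kidneys (1.22 ± 0.20, limma adjusted p = 0.00049). Since the controls sat near background, the size of this fold depends on the background: with the lowest value of each array subtracted and 16 added, the log2 fold change of MT2 was 2.20 in WT and 1.95 in IL-33-deficient kidneys. MT1 and MT2 have similar sequences, and whether their probes cross-hybridize was not tested. MT3 and MT4, the metallothioneins of brain and of stratified epithelium, named after their values were seen, stayed below the median gene, with log2 fold changes in WT of -0.02 for both and, without IL-33, of -0.02 and 0.03.

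SRXN1, sulfiredoxin, restores peroxiredoxins that peroxide has inactivated, and it was higher in every UUO kidney than in any control. It was at 8.62 and 8.64 in WT controls and at 8.56 and 8.77 in IL-33-deficient controls. After UUO it lay between 9.54 and 10.20 in WT kidneys, with a median of 9.98, and at 9.59, 9.94, 9.86, 9.96 and 9.76 in IL-33-deficient kidneys. The lowest UUO kidney, WT 3820, was still well above the highest control. The rise was 2.36-fold in WT (log2 fold change 1.24 ± 0.15, SE, limma adjusted p = 0.00019) and 2.23-fold in IL-33-deficient kidneys (1.16 ± 0.16, limma adjusted p = 0.00014).

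HMOX1, heme oxygenase-1, breaks heme down to biliverdin, iron and carbon monoxide, and of the 10 genes it varied most between WT kidneys after UUO. It was at 8.47 and 8.33 in WT controls and at 7.90 and 8.49 in IL-33-deficient controls. After UUO it was at 8.63, 10.34 and 9.04 in WT kidneys 3818, 3819 and 3820 of set 1. The 4 WT kidneys of set 2 had 10.60, 9.91, 11.01 and 10.84. Kidneys without IL-33 had 9.40 and 10.14 (set 1) and 10.18, 10.36 and 10.40 (set 2). All UUO kidneys were above all controls, but WT 3818 was only 0.23 above the mean of the WT controls on the log2 scale, while WT 3894 was 2.61 above it. The mean rise was 3.15-fold in WT (log2 fold change 1.65 ± 0.51, SE, limma adjusted p = 0.039) and 3.74-fold in IL-33-deficient kidneys (1.90 ± 0.53, limma adjusted p = 0.017).

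The call of HMOX1 in WT kidneys depended on single arrays. It was lost without WT control 3811 or 3812, with log2 fold changes of 1.72 and 1.58 (limma adjusted p = 0.18 and 0.24). It was also lost without any one of WT UUO arrays 3819, 3892, 3893, 3894 and 3895 or IL-33-deficient UUO arrays 3822 and 3897, with log2 fold changes of 1.49 to 1.68 and limma adjusted p of 0.051 to 0.065. With the UUO arrays of set 1 only the WT rise was 0.94 (limma adjusted p = 0.40). Without both WT 3818 and WT 3820 the rise in WT was 2.14 on the log2 scale and passed the test. In IL-33-deficient kidneys the call was lost without control 3813 (1.61, limma adjusted p = 0.17) or control 3814 (2.20, limma adjusted p = 0.054) and with set 1 only (1.58, limma adjusted p = 0.10).

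**Figure D3:**
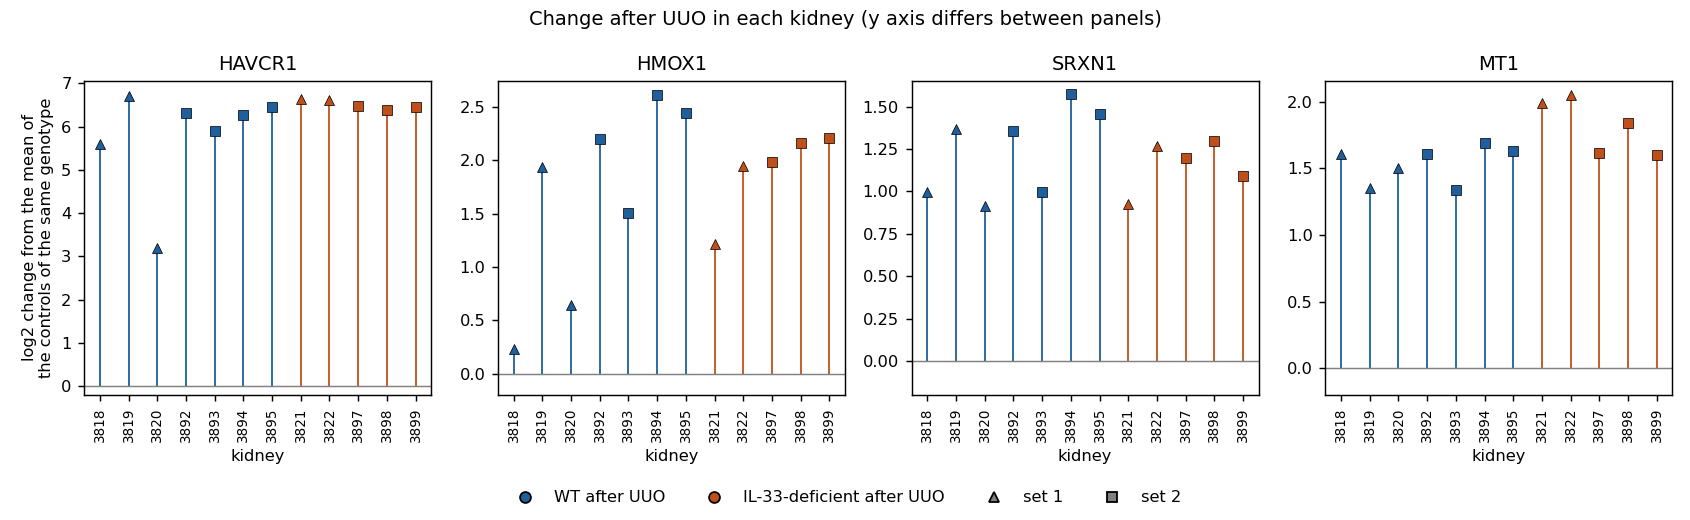
log2 change of HAVCR1, HMOX1, SRXN1 and MT1 in each of the 12 UUO kidneys from the mean of the controls of the same genotype, with triangles for set 1 and squares for set 2. WT kidneys 3818 and 3820 had the lowest HMOX1 changes (0.23 and 0.64), whereas their MT1 values were not the lowest.

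The weak HMOX1 kidneys were weak for some of the other genes and not for all. In WT 3818 and WT 3820 the HMOX1 change was 0.23 and 0.64 on the log2 scale, against 1.51 to 2.61 in the other 5 WT kidneys. SRXN1 changed by 1.00 and 0.91 in these kidneys and by 0.99 to 1.57 in the others. GCLM changed by 0.06 and 0.15 in them, against 0.32 to 0.62 in the others. TXNRD1 changed by -0.04 and -0.19, against -0.01 to 0.37. WT 3818 was also the lowest WT kidney after UUO for NFE2L2 (0.20) and GCLC (-0.12). MT1 stood at 14.18 and 14.07 in WT 3818 and WT 3820, inside the range of 13.91 to 14.26 of the others. MT2 changed by 1.455 and 1.10 in them, inside the 0.91 to 1.84 of the others, and NQO1 by 0.47 and 0.56, against 0.17 to 0.55. HAVCR1 was low in WT 3820, with a change of 3.19, but WT 3818 had 5.61 against 5.89 to 6.72 in the others.

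NFE2L2, the transcript of NRF2 itself, rose by an amount that depended on the processing. Across the alternatives run, its log2 fold change was 0.48 to 0.85 in WT and 0.45 to 0.98 in IL-33-deficient kidneys. It was at 7.38 and 7.39 in WT controls and at 7.16 and 7.34 in IL-33-deficient controls. After UUO it lay between 7.59 and 8.06 in WT kidneys, with a median of 7.94, and at 7.77, 7.81, 7.94, 7.94 and 7.51 in IL-33-deficient kidneys. No UUO kidney overlapped a control. The rise was 1.42-fold in WT (log2 fold change 0.51 ± 0.11, SE, limma adjusted p = 0.0077) and 1.46-fold in IL-33-deficient kidneys (0.54 ± 0.12, limma adjusted p = 0.0038). The call was lost in WT without control 3811 or 3812 (0.50 and 0.51, limma adjusted p = 0.080 and 0.085) or with set 1 only (0.48, limma adjusted p = 0.13) and in IL-33-deficient kidneys without control 3813 (0.45, limma adjusted p = 0.081). NRF2 is regulated mainly through its protein, which the arrays do not measure.

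NQO1 reduces quinones by 2 electrons at once and so avoids semiquinone radicals. It was at 8.15 and 8.08 in WT controls and at 7.67 and 7.93 in IL-33-deficient controls. After UUO it lay between 8.29 and 8.68 in WT kidneys, with a median of 8.59, and at 8.01, 8.16, 8.36, 8.57 and 8.37 in IL-33-deficient kidneys. Within each genotype the UUO kidneys were above the controls, but the IL-33-deficient UUO kidneys of set 1 overlapped the WT controls. NQO1 rose 1.34-fold in WT (log2 fold change 0.43 ± 0.13, SE, limma adjusted p = 0.036) and 1.41-fold in IL-33-deficient kidneys (0.49 ± 0.13, limma adjusted p = 0.015). The WT call was lost without control 3811 or 3812 (0.46 and 0.39, limma adjusted p = 0.16 and 0.25) and without any one of UUO arrays 3892, 3894 and 3895 (0.40 to 0.43, limma adjusted p = 0.053 to 0.061). It was lost too without both WT 3818 and WT 3820 (0.39, limma adjusted p = 0.053) and with the UUO arrays of set 1 only (0.40, limma adjusted p = 0.17). The call in IL-33-deficient kidneys was lost without control 3813 (0.36, limma adjusted p = 0.22) and with set 1 only (0.28, limma adjusted p = 0.27).

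**Figure D4:**
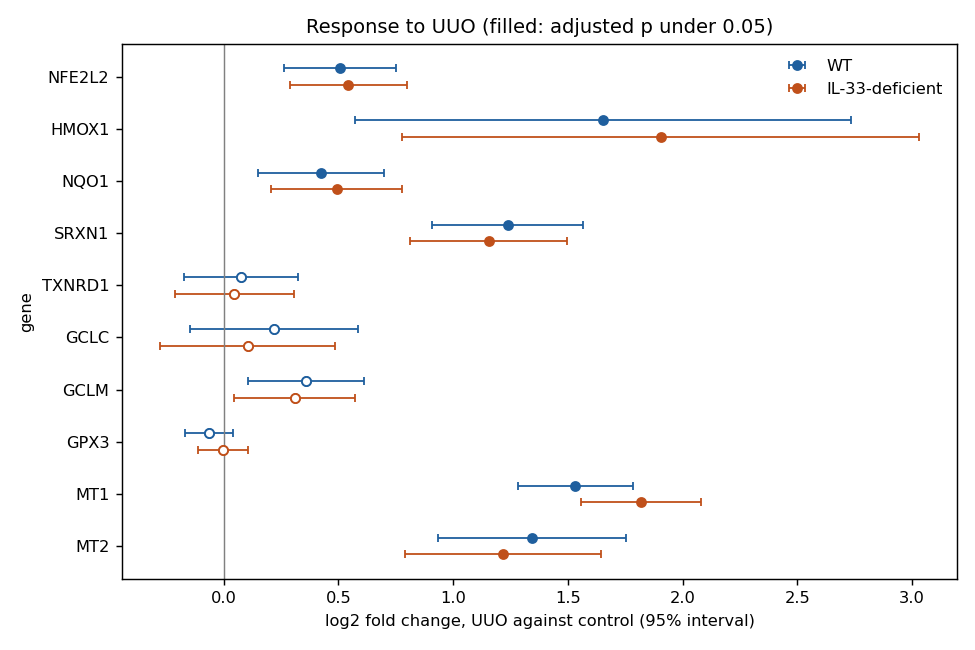
log2 fold change of the 10 genes, UUO against control, in WT and IL-33-deficient kidneys, with 95% intervals from limma and filled points for an adjusted p under 0.05. The 6 filled genes were the same in both genotypes, and the intervals of the genotypes overlapped for every gene.

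The genes of glutathione synthesis changed less. GCLM, the modifier subunit of glutamate-cysteine ligase, the first enzyme of the pathway, was bright throughout. It was at 11.67 and 11.76 in WT controls and 11.68 and 11.64 in IL-33-deficient controls, and at 11.77 to 12.33 in WT (median 12.15) and 11.82 to 12.13 in IL-33-deficient kidneys after UUO. All UUO kidneys were above all controls, with WT 3818 the closest. The log2 fold changes of 0.36 ± 0.12 (SE, limma adjusted p = 0.055) in WT and 0.31 ± 0.12 (limma adjusted p = 0.094) in IL-33-deficient kidneys did not pass the test. They passed without both WT 3818 and WT 3820 (0.46, limma adjusted p = 0.00079, and 0.31, limma adjusted p = 0.012), without WT 3818 alone (0.41, limma adjusted p = 0.012, and 0.31, limma adjusted p = 0.045), and in WT also without WT 3820 (0.39, limma adjusted p = 0.023). Both passed too with array weights (0.41, limma adjusted p = 0.0055, and 0.32, limma adjusted p = 0.035). With the UUO arrays of set 2 only they were 0.50 (limma adjusted p = 7.2e-05) and 0.40 (limma adjusted p = 0.00051). In WT the change also passed with brighter genes only (0.36, limma adjusted p = 0.033).

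GCLC, the catalytic subunit of the same ligase, was dim and split by set. In WT kidneys after UUO it was at 7.17, 7.23 and 7.31 in set 1, level with the WT controls at 7.26 and 7.32, and at 7.74, 7.60, 7.77 and 7.77 in set 2. Kidneys without IL-33 had 7.32 and 7.47 (set 1) and 7.53, 7.53 and 7.87 (set 2) after UUO, and their controls 7.61 and 7.27. The set 2 kidneys were above the set 1 kidneys within each genotype. Over both sets the log2 fold change was 0.22 ± 0.17 (SE, limma adjusted p = 0.50) in WT and 0.10 ± 0.18 (limma adjusted p = 0.79) in IL-33-deficient kidneys. In WT kidneys it was -0.06 with the UUO arrays of set 1 only (limma adjusted p = 0.87) and 0.43 with those of set 2 only (limma adjusted p = 0.013).

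A comparison of set 2 with set 1 over the 12 UUO kidneys, with genotype in the model, was added after these values were seen. No gene of the table was called higher in set 2 by limma at an adjusted p under 0.05 (0%; 1833 genes differed in either direction at an unadjusted p under 0.05). GCLC was higher in set 2 by a log2 of 0.39 ± 0.07 (SE, limma adjusted p = 0.10), GCLM by 0.28 ± 0.05 (limma adjusted p = 0.10) and HMOX1 by 0.96 ± 0.30 (limma adjusted p = 0.29). Without IL-33-deficient kidney 3822 GCLC and GCLM passed the test (0.43, limma adjusted p = 0.034, and 0.30, limma adjusted p = 0.050). In the 7 WT kidneys alone set 2 did not overlap set 1 for GCLC (difference 0.48) and GCLM (0.32). These were 2 of the 10 genes, where 9.08% of all genes did not overlap between the sets in WT kidneys. What differed between the sets is not stated in the labels.

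TXNRD1 and GPX3 stayed at the level of the controls. TXNRD1, the cytosolic thioredoxin reductase, lay between 7.02 and 7.58 in WT and between 7.07 and 7.46 in IL-33-deficient kidneys after UUO, and between 7.11 and 7.31 in the 4 controls. Its log2 fold change was 0.08 in WT (95% interval -0.17 to 0.32) and 0.05 in IL-33-deficient kidneys (-0.21 to 0.31). Its mean was above that of only 57.2% to 59.5% of all genes, and whether its probe followed the transcript at this brightness was not tested. GPX3, the secreted glutathione peroxidase that the proximal tubule supplies to plasma, lay between 13.97 and 14.20 in all 16 kidneys. Its log2 fold change was -0.06 in WT (95% interval -0.17 to 0.04) and -0.0032 in IL-33-deficient kidneys (-0.11 to 0.11), and its sign in IL-33-deficient kidneys turned without further normalization (0.04) and with median centring (0.04). GPX3 was brighter than 99.9% of all genes, at the top of the scale, and whether its probe was saturated was not tested.

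The question of the study's genotype comparison was whether loss of IL-33 alters the early response. None of the 10 genes was called between IL-33-deficient and WT kidneys after UUO, neither at an adjusted p under 0.05, which called 0.00552% of all genes, nor at the study's looser threshold (unadjusted p under 0.05, adjusted p under 0.25 and a fold above 1.3), which called 0.011%. All 7 WT kidneys entered this comparison, whereas the study's own contrast used fewer of them, without stating which, so the groups are not the same. With its own groups the paper listed many more probes at this threshold, most of them lower without IL-33. It also reported a negative enrichment of annotation terms for oxidoreductase activity. The log2 differences ran from -0.25 for NQO1 to 0.04 for HMOX1. For MT1 the difference was -0.04 (95% interval -0.23 to 0.16), for MT2 -0.03 (-0.36 to 0.30) and for SRXN1 -0.04 (-0.30 to 0.22). The interval for HMOX1 was wide, from -0.81 to 0.90. For NFE2L2 it was -0.29 to 0.09, for GCLM -0.30 to 0.10, for GCLC -0.25 to 0.31, for TXNRD1 -0.23 to 0.16 and for GPX3 -0.11 to 0.05.

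NQO1 was the member nearest to a difference, and the only 1 of the 10 genes with an unadjusted p under 0.05 by limma. Of all 18132 genes, 1874 had such a p in this comparison. NQO1 was lower in IL-33-deficient than in WT kidneys after UUO by a log2 of -0.25 ± 0.10 (SE, unadjusted p = 0.022 and adjusted p = 0.40 by limma). The exact two-sided permutation p over the 792 ways to choose 5 of 12 arrays was 0.039 (smallest possible 0.0013). The difference was -0.44 in set 1 alone (95% interval -0.78 to -0.10) and -0.13 in set 2 alone (-0.31 to 0.05), and the adjusted p was 0.33 with the set as a block. The control kidneys differed in the same direction, by -0.32 (95% interval -0.66 to 0.02, adjusted p = 1 by limma). Its 5 IL-33-deficient UUO values overlapped the WT values.

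**Figure D5:**
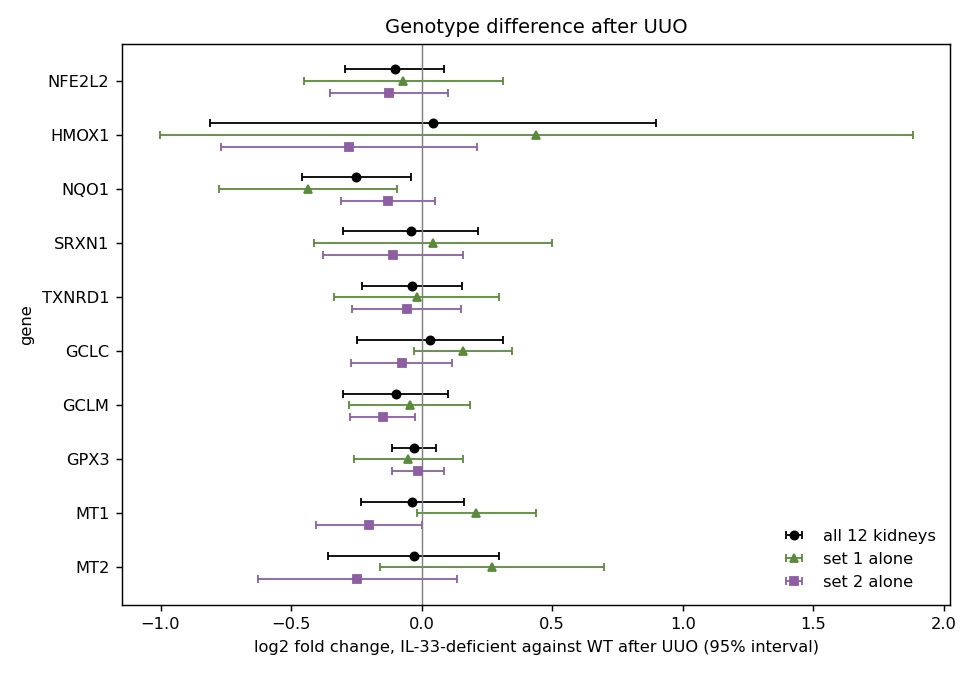
log2 fold change of the 10 genes after UUO, IL-33-deficient minus WT, over all 12 kidneys, in set 1 alone and in set 2 alone, with 95% intervals from limma. The interval over all kidneys included 0 for 9 genes, and for MT1, MT2, HMOX1, SRXN1 and GCLC the estimates in set 1 and set 2 had opposite signs.

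The estimates of the 2 sets had opposite signs for 5 of the genes, which was not compared with the share over all genes. Their 95% intervals in either set included 0, except that of MT1 in set 2, and none passed the test. MT1 was 0.21 higher in IL-33-deficient kidneys on the log2 scale in set 1 (95% interval -0.02 to 0.44) and -0.20 in set 2 (-0.41 to -0.00024). MT2 was 0.27 in set 1 (-0.16 to 0.70) and -0.25 in set 2 (-0.63 to 0.13). HMOX1 was 0.44 in set 1 (-1.003 to 1.881), where WT 3818 and WT 3820 lie, and -0.28 in set 2 (-0.77 to 0.21). Without those 2 WT kidneys the HMOX1 difference over both sets was -0.44 (-0.93 to 0.05, limma adjusted p = 0.55). GCLM was lower in the IL-33-deficient kidneys in set 2 without overlap (-0.15, limma adjusted p = 0.41). It was the only 1 of the 10 genes without overlap there, where 8.82% of all genes had none.

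The response to UUO was not called different between the genotypes for any of the 10 genes, and for none of all 18132 genes (0%; 860 at an unadjusted p under 0.05 by limma). The difference in log2 response, IL-33-deficient minus WT, was 0.29 for MT1 (95% interval -0.08 to 0.65), -0.12 for MT2 (-0.72 to 0.47), -0.08 for SRXN1 (-0.56 to 0.39), 0.25 for HMOX1 (-1.31 to 1.81), 0.03 for NFE2L2 (-0.32 to 0.39) and 0.07 for NQO1 (-0.33 to 0.46). For HMOX1 the interval reached past the WT response itself, and for NQO1 its upper end did. Between the untreated kidneys no gene was called either (0%; 664 at an unadjusted p under 0.05 by limma). The largest member differences there were those of MT1, -0.32 (95% interval -0.64 to -0.0090), and NQO1, -0.32, in the IL-33-deficient kidneys.

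The wider pathways were described through 10 lists with 111 measured genes that are not members. In WT kidneys 18 of these were called higher and 15 lower after UUO, and in IL-33-deficient kidneys 21 were called higher and 21 lower. Without WT control 3811 or 3812 the number called in WT fell from 33 to 14 or 9, without WT 3820 it rose to 48, and without IL-33-deficient control 3813 or 3814 the number called in those kidneys fell from 42 to 25 or 28. With the UUO arrays of set 1 only, 3 were called in WT and 25 in IL-33-deficient kidneys. Over all genes the calls in WT went from 2754 to 1051 or 809, to 3578 without WT 3820 and to 188 with set 1 only. Those in IL-33-deficient kidneys went from 3955 to 2276 or 2575, and to 2258 with set 1 only. By a fixed rule the 3 called genes of each list with the largest mean size of change over both genotypes are named below, with the log2 fold change in WT first and that in IL-33-deficient kidneys second.

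Among 15 regulators and partners of NRF2, 2 were higher and none lower in WT, and 2 were higher and 3 lower in IL-33-deficient kidneys. SQSTM1, the autophagy receptor p62 that removes KEAP1, rose by 0.883 and 1.304 (limma adjusted p = 0.027 and 0.0020). BACH1 and BACH2, repressors that occupy the same elements as NRF2, fell in IL-33-deficient kidneys by 0.40 and 0.40 (limma adjusted p = 0.030 and 0.023), with log2 fold changes of -0.30 and -0.26 in WT that did not pass. KEAP1 itself, with -0.07 and -0.17, was not called. The list median was -0.07 in WT and -0.04 in IL-33-deficient kidneys.

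Of 10 measured genes of glutathione synthesis and recycling other than GCLC and GCLM, 3 were higher and 1 lower in WT, and 4 were higher and 2 lower in IL-33-deficient kidneys. CHAC1, which degrades glutathione, rose by 2.11 and 2.60 (limma adjusted p = 0.0038 and 0.00062). PGD, which makes NADPH in the pentose phosphate pathway, rose by 0.85 and 1.16, and OPLAH, which returns oxoproline to glutamate, by 0.68 and 0.57. SLC7A11, the cystine importer and a well-known NRF2 target, was at a level below the median gene and had log2 fold changes of 0.11 and 0.11 that were not called.

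The thioredoxin and peroxiredoxin list of 14 genes gave 2 higher and 3 lower in WT and none higher and 3 lower in IL-33-deficient kidneys. SESN1, a sestrin that restrains growth signalling under stress, fell by 0.48 and 0.53, and TXN2, the mitochondrial thioredoxin, by 0.30 and 0.38. PRDX5 fell in IL-33-deficient kidneys by 0.35 (limma adjusted p = 0.034), with -0.21 in WT, not called. TXN1, the cytosolic thioredoxin, with 0.52 and 0.53 (limma adjusted p = 0.17 and 0.15), and PRDX1, with 0.0064 and -0.02, did not pass. 

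Of 10 measured reductases of quinones, carbonyls and aldehydes besides NQO1, 2 were higher and 2 lower in WT, and 2 higher and 1 lower in IL-33-deficient kidneys. AKR1B8, an aldo-keto reductase, rose by 1.55 and 1.85 (limma adjusted p = 0.0016 and 0.00027), and CBR1, carbonyl reductase 1, by 1.15 and 0.90. AKR1A4, an aldehyde reductase abundant in the proximal tubule, fell by 0.38 and 0.62. NQO1 rose less than AKR1B8 and CBR1 in both genotypes by these estimates, a difference that was not tested.

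In the heme and iron list of 11 genes, 2 were higher in WT and 3 in IL-33-deficient kidneys, and none was lower. LCN2, lipocalin-2, which binds iron-loaded siderophores and marks tubular injury, rose by 5.61 and 5.91 (limma adjusted p = 6.7e-07 and 4.2e-07). SLC40A1, ferroportin, the iron exporter, rose by 1.03 and 0.75. BLVRA, which converts the biliverdin made by HMOX1 to bilirubin, rose in IL-33-deficient kidneys by 0.38 (limma adjusted p = 0.031), with 0.13 in WT, not called.

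Of 19 measured glutathione transferases, 5 were higher and 4 lower in WT, and 6 were higher and 4 lower in IL-33-deficient kidneys. MGST1, a membrane-bound transferase, rose by 1.65 and 2.21 (limma adjusted p = 3.9e-05 and 2.6e-06). GSTA1, an alpha-class enzyme and a classical target of ARE, rose in IL-33-deficient kidneys by 2.26 (limma adjusted p = 0.00097), with 1.10 in WT (limma adjusted p = 0.076), and GSTZ1, an enzyme of tyrosine breakdown, fell there by 1.29 (limma adjusted p = 0.0034), with -0.76 in WT (limma adjusted p = 0.074). For neither gene was the response called different between the genotypes. The list moved in both directions, with a median of 0.04 and 0.06.

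All 5 genes of the dismutase and catalase list were lower in IL-33-deficient kidneys, and SOD1, SOD2 and CCS, the copper chaperone of SOD1, were lower in WT. SOD1 fell by 0.31 and 0.57, SOD2 by 0.35 and 0.65, and CCS by 0.79 and 0.98. CAT, catalase, and SOD3, the extracellular dismutase, fell in IL-33-deficient kidneys by 0.65 and 0.69 and had -0.41 and -0.32 in WT, not called. With the UUO arrays of set 1 only, none of the 5 was called in WT and 4 were called in IL-33-deficient kidneys, and with background subtraction 1 was called in WT. Among 7 glutathione peroxidases other than GPX3, GPX8, an enzyme of the endoplasmic reticulum, rose by 0.77 and 1.11, GPX6 fell by 1.01 and 0.76, and GPX7 rose in IL-33-deficient kidneys by 0.41, with 0.23 in WT, not called. GPX4, with 0.09 and 0.01, was not called. GPX1 was not called either, but its group means were 14.48 or 14.49, the highest value of the table. Quantile normalization gives the brightest gene of each array the same value, so a rise of GPX1 could not show.

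None of the 12 measured genes of the list of other metallothioneins and zinc handling passed the test in either genotype, with log2 fold changes from -0.22 to 0.16. They included MTF1, the factor that binds the MRE, with -0.02 and -0.08, and the zinc exporter SLC30A1, another gene with MRE, with 0.10 and 0.06, both named after their values were seen. Among 8 measured oxidases that make superoxide, 1 was higher and 1 lower in WT, and 2 were higher and 2 lower in IL-33-deficient kidneys. XDH, xanthine dehydrogenase, rose by 0.67 and 0.88, CYBA, the p22 subunit of NADPH oxidases, fell by 0.37 and 0.59, and NOX4, the NADPH oxidase of kidney epithelium, fell in IL-33-deficient kidneys by 0.76, with -0.54 in WT, not called.

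Markers of cell types moved along with these genes, and in whole kidney fewer cells of a type and less RNA per cell cannot be told apart. Of all genes, 6.97% were called higher and 8.22% lower in WT kidneys, and 10.6% and 11.2% in IL-33-deficient kidneys. Of 7 measured markers of the proximal tubule, 1 was lower in WT and 5 in IL-33-deficient kidneys, and none was higher. Their summed intensity was 60348 to 61054 in WT controls and 27215 to 53134 in WT kidneys after UUO, and 64071 to 65915 in IL-33-deficient controls and 19142 to 33254 after UUO. MT1 rose and GPX3 was not called in the same kidneys. Of 11 measured markers of macrophages and leukocytes, which can express HMOX1 strongly, 2 were higher and 1 lower in WT, and 4 higher and 1 lower in IL-33-deficient kidneys, with summed intensities of 1844 to 2096 in the 4 controls and 2211 to 5207 in the UUO kidneys. CD14 rose by 2.63 and 2.89 and CD68 by 0.62 and 0.96, while PTPRC and ITGAM stayed below the median gene in every group. The median log2 fold change of this list was only 0.02 in WT and 0.12 in IL-33-deficient kidneys, and its lowest values were -0.41 and -0.36. Of 7 measured neutrophil markers 1 was higher in WT and 3 in IL-33-deficient kidneys. Of 8 measured markers of fibroblasts and myofibroblasts 5 were higher in WT and 6 in IL-33-deficient kidneys and none was lower, with sums of 3294 to 3725 in the 4 controls, 3343 to 5204 in WT and 5514 to 6488 in IL-33-deficient kidneys after UUO. Of 8 measured markers of the thick limb, distal tubule and collecting duct 4 were lower in WT and 3 in IL-33-deficient kidneys and none was higher, with sums of 18362 to 23758 in the controls and 8860 to 20878 in the UUO kidneys. The part of any cell type in the changes of the 10 genes was not tested.

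Across the 12 UUO kidneys the members fell into loose patterns, given here as a description. HMOX1 went along with SRXN1 (Pearson r = 0.87), GCLM (0.84), GCLC (0.78) and TXNRD1 (0.71), but not with NQO1 (0.10), NFE2L2 (0.31) or MT1 (-0.02). MT1 and MT2 went together with r = 0.67. The 12 points share 2 genotypes and 2 sets, and WT 3818 and WT 3820 are the low end of HMOX1. The genes of the whole table with the most similar pattern to HMOX1 were SRM, SPRR2G and RRP12 (r = 0.96, 0.96 and 0.95), and to SRXN1 they were METTL1, 4933424B01RIK and ADSL (0.94, 0.93 and 0.92). For NQO1 they were SUCLG1, SELENBP2 and PXMP4 (0.93, 0.92 and 0.91), for MT1 KLK13, 3300002I08RIK and SLC9A9 (0.92, 0.86 and 0.85), for MT2 NDRL, GPR27 and OLFR114 (0.92, 0.87 and 0.83), and for NFE2L2 PRH1, KLF6 and ITPKC (0.90, 0.88 and 0.87). For GCLM they were PDIA6, MRPL51 and RAB11A (0.93, 0.92 and 0.92), for GCLC GRWD1, BCAP31 and LPGAT1 (0.96, 0.93 and 0.90), for TXNRD1 CDK2AP2, HMBOX1 and AHSA1 (0.94, 0.90 and 0.88), and for GPX3 OLFR1437, OLFR1014 and OLFR552 (0.92, 0.89 and 0.88). These are the highest coefficients over the whole table, and those of MT2 and GPX3 include olfactory receptors, which the kidney hardly expresses.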

How the data were processed

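RNA of 16 mouse kidneys was hybridised to Illumina MouseRef-8 v2 BeadChips, 1 array per kidney sample. The deposited table holds linear intensities, 1 per gene symbol and array, already alike in distribution between arrays; the submitters' processing notes name BeadStudio 2, and the authors' methods name beadarray and limma for import and analysis. How background was corrected, how arrays were normalized and how several probes were joined into 1 row is not given in the sources used here. For the fits, intensities of the 16 arrays received quantile normalization, were put on the log2 scale and fitted with limma 3.58.1 in R 4.3.3, over all 18132 genes with Benjamini-Hochberg adjustment. The 12 UUO arrays, 5 IL-33-deficient and 7 WT, were fitted alone for the genotype comparison after UUO, and all 16 in a 4-group model for the others. The study's own genotype contrast used 4 WT kidneys, not stated which, so its inputs differ from those here. An exact two-sided permutation test in Python 3.11.15 was also run for each of the 10 genes. It compared the genotypes after UUO, the genotypes in set 2, and the sets in WT kidneys. Over the 12 UUO arrays its p was 0.33 to 0.92 for the genes other than NQO1. The number of arrays limits the precision, and 2 controls per genotype limit it most. Only the fit of the WT response to UUO was tested on simulated data, with independent noise and no difference between sets. The other comparisons were not simulated.

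Alternatives were no further normalization, median centring, subtraction of each array's lowest value with 16 added, array weights, brighter genes only, either set alone, the set as a block, and leaving out each array or both weak WT arrays. The genes described and the lists were chosen with earlier results of these data known. In each pathway list the 3 called genes with the largest mean size of log2 fold change over both genotypes were named. KEAP1, SLC7A11, TXN1, PRDX1, GPX1, GPX4, SOD1, SOD2, SOD3 and CAT were to be named whatever their values, with those earlier results known. GSR was also to be named but is not described. Other genes were chosen after their values were seen or as the defining gene of a list. Likeness is Pearson's r over the 12 UUO arrays. Promoter windows are those of RefSeq for GRCm38.p6.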

Additional observations from a re-analysis of the deposited data

Results flagged for a closer look

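Among the 20 combinations of a gene and a UUO group searched for a kidney far from the rest, 2 stood out, where chance gives about 1 in 20. HMOX1 in IL-33-deficient kidney 3821 after UUO was 9.404 on the log2 intensity scale, below the other 4 at 10.14 to 10.40. MT2 in IL-33-deficient kidney 3897 after UUO was 8.035, below the other 4 at 8.505 to 8.575.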

How the results depend on the processing

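MT1, MT2 and SRXN1 stayed called in both genotypes under every alternative run for the response to UUO. The number of the 10 genes called was 3 to 7 in WT and 3 to 7 in IL-33-deficient kidneys when 1 array was left out, and 3 in WT with the UUO arrays of set 1 only. For set 2 against set 1 it was 0 to 2 when 1 array was left out, and 0 to 112 of all genes were then called. Of all genes, 2754 were called in WT kidneys, 809 to 3578 with 1 array left out, 188 with set 1 only and 4241 with set 2 only. In IL-33-deficient kidneys 3955 of all genes were called, and 2276 to 4294 with 1 array left out. No paired analysis was possible because no replicate number is shared between groups. The cause of the changes of sign below was not tested, and none of those values passed the test.

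With set 1 only, the WT log2 response turned to -0.055 for GCLC and -0.027 for TXNRD1, and the IL-33-deficient response to -0.044 for GCLC and -0.037 for TXNRD1. The IL-33-deficient response of GPX3 was 0.036 without further normalization, 0.043 with median centring and 0.00060 with set 2 only. With 1 array left out, the IL-33-deficient response was -0.069 to 0.28 for GCLC, -0.054 to 0.15 for TXNRD1 and -0.031 to 0.028 for GPX3.

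The difference in response between genotypes was -0.018 for NFE2L2 and -0.24 for HMOX1 without WT 3818 and 3820, -0.072 for HMOX1 with set 2 only, and -0.12 for NQO1, 0.0034 for SRXN1 and 0.18 for MT2 with set 1 only. With 1 array left out it was -0.059 to 0.13 for NFE2L2, -0.046 to 0.55 for HMOX1, -0.067 to 0.20 for NQO1 and -0.19 to 0.023 for SRXN1.

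The genotype difference after UUO was -0.13 with array weights, -0.44 without WT 3818 and 3820 and -0.28 in set 2 alone for HMOX1, and -0.028, -0.078 and -0.077 in that order for GCLC. In set 1 alone it was 0.044 for SRXN1, 0.21 for MT1 and 0.27 for MT2. With 1 array left out it was -0.19 to 0.22 for HMOX1, -0.051 to 0.087 for GCLC, -0.086 to 0.012 for TXNRD1, -0.095 to 0.016 for SRXN1, -0.094 to 0.019 for MT1, -0.10 to 0.069 for MT2 and -0.057 to 0.0021 for GPX3.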
